A study of Mus musculus with 4 samples.

Results

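The apoptosis and p53 pathway genes described here are 44 genes picked by name from a table of 53465 genes. They comprise 21 genes of the intrinsic (mitochondrial) route, 7 of the extrinsic (death receptor) route, 7 of the p53 route, 4 inhibitor of apoptosis (IAP) genes and 5 caspase genes outside these routes. RNA was sequenced from whole testes of male mice at postnatal day 18, on a C57BL/6-ICR mixed background. Of 4 libraries, 2 came from mice whose genotype is given as wild type, called control in the protocol, and 2 from mice given as Sympk cKO, with Stra8-Cre as the recombinase. Sympk encodes symplekin, a scaffold of mRNA 3' end processing, and Stra8-Cre acts in male germ cells before meiosis, so the somatic cells of a cKO testis are not its target. The labels do not say whether the wild-type mice carried a floxed allele or the Cre. They do not tie a library to a mouse either, so the p-values measure the spread between libraries of a genotype, which could be technical.

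In the intrinsic route, Bax, Bak1 and Bok open the outer mitochondrial membrane. Guardians of the Bcl-2 family hold them back, and BH3-only proteins relieve that hold. Released cytochrome c joins Apaf1 and caspase-9 in the apoptosome, while Diablo (Smac) displaces IAPs from caspases. In the extrinsic route, ligands such as Fas ligand bind death receptors, which recruit Fadd and caspase-8. The transcription factor p53 raises genes of both routes and its own inhibitor Mdm2. In the testis, apoptosis removes surplus germ cells of the first wave and spermatocytes arrested in meiosis.

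Libraries held 32730868 to 41584389 counts, and their cell makeup differed widely between genotypes, whose part in the results was not tested. Levels are counts scaled to library size by TMM factors (CPM), and a gene was called where its adjusted p in edgeR's quasi-likelihood test was under 0.05. The summed level of 12 pachytene spermatocyte markers was 6402 to 6707 CPM in wild type and 67.0 to 94.6 CPM in cKO, and all 12 were lower. Markers of 5 somatic cell types were mostly higher in cKO: 18 of 19 Sertoli, 8 of 11 Leydig, 5 of 8 peritubular, 11 of 11 endothelial and 11 of 11 macrophage genes, with none lower on this scale. Their list medians ran from 0.82 to 1.34 on the log2 scale. Of 15 spermatogonial markers, 9 were higher and 2 lower, while their sum went the other way, from 1209.5 to 1409.9 CPM in wild type to 774 to 851 CPM in cKO. Of 9 immediate early genes, 8 were higher, and they summed to 70.0 to 77.3 CPM in wild type, 225 CPM in the first cKO library and 412 CPM in the second. Skeletal muscle markers summed to 31.2 CPM in wild-type replicate 1, 767 CPM in wild-type replicate 2 and 1585 to 2599.9 CPM in cKO. Sympk RNA was at 225 and 192 CPM in wild type and 171 and 173 CPM in cKO, a log2 fold change of -0.28 (SE 0.141) that was not called (edgeR adjusted p = 0.132).

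Most of the tested pathway genes were higher in the cKO testes on this scale. Of the 44 genes, 41 passed the filter on low counts, of which 22 were higher, 6 lower and 13 without a call. The genes that fell were Mdm2, Diablo, Birc5, Bad, Bcl2l1 and Bcl2l14. Of all 21822 genes tested, 63.4% were called, 29.2% higher and 34.3% lower, so the called share of the members (68.3%) was near the background, with 53.7% higher and 14.6% lower. The median log2 fold change was 0.64 over the tested members and -0.023 over all genes tested. In 35 of the 41 the groups did not overlap, 25 of them higher and 10 lower in cKO, against 83.8%, 40.9% and 42.9% of all genes tested. In whole testis, fewer cells of a type and less RNA per cell cannot be told apart. Calls depended on the scale. Scaling libraries to the summed counts of the Sertoli markers (the Sertoli scale) moved the median of all genes by -1.09 in log2 units. With it 2 of the 41 members were higher (Hrk and Btg2) and 17 lower, against 482 and 12680 of all 21822 genes tested. That scale lowers the fold changes by about the same amount, so it cannot turn a fall into a rise, and only rises were at risk. The 6 members that fell thus kept their sign. Of the 22 that rose, 14 kept their sign, most of them without a call. The other 8 changed sign (Bax, Bok, Bcl2l11, Casp9, Casp6, Fadd, Tradd and Trp53). Of the 28 calls, 19 held without each library in turn (14 higher and 5 lower).

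**Figure D1:**
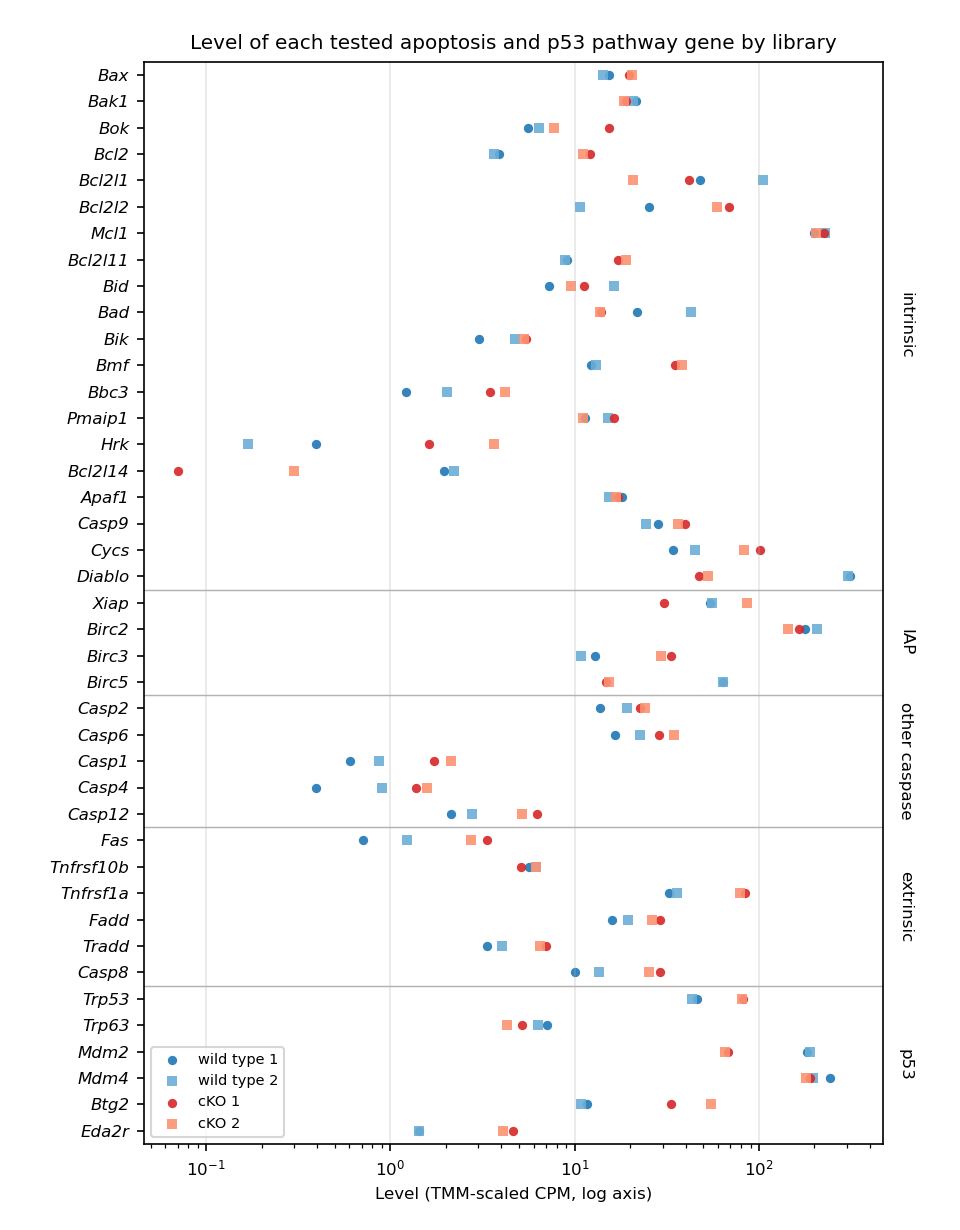
Level of each of the 41 tested genes in every library (x axis, TMM-scaled CPM on a log axis), ordered by route; circles and squares are replicates 1 and 2, blue wild type and red cKO. The replicates of a genotype lie apart for Xiap in cKO (30.6 and 86.1 CPM) and for Bcl2l1 in wild type (47.6 and 105 CPM), and close together for Mdm2, Birc5 and Diablo.

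Per gene length, Mcl1 led the set in both genotypes, at 49.2 ± 6.13 FPKM in wild type and 57.7 ± 1.41 FPKM in cKO (SD, n = 2 for each). FPKM is the authors' length-scaled unit. In wild type Diablo came next at 26.4 ± 0.242 FPKM, then Birc2 at 21.7 ± 2.80 FPKM, Mdm2 at 17.5 ± 0.838 FPKM and Birc5 at 14.2 ± 0.306 FPKM. In cKO the genes after Mcl1 were Cycs at 26.6 ± 2.56 FPKM, Tnfrsf1a at 23.3 ± 0.0960 FPKM, Birc2 at 20.3 ± 0.937 FPKM and Btg2 at 17.6 ± 6.88 FPKM. Mcl1 and Birc2 were thus among the leading 5 in both genotypes, while Diablo, Mdm2 and Birc5 were so in wild type alone. In cKO, Birc2 and Btg2 did not differ beyond the spread of Btg2.

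In the p53 route, the gene of p53 rose while that of its main inhibitor fell. Of 6 tested genes, 3 rose (Trp53, Btg2 and Eda2r), 1 fell (Mdm2) and 2 were not called. The called share of 66.7% was near that of all genes tested (63.4%, with 29.2% higher and 34.3% lower). Without wild-type replicate 2 the count of falls was 2, with Mdm4 called (-0.42, edgeR adjusted p = 0.0278). Trp53, which encodes p53 (chromosome 11, 69580359 to 69591873, plus strand, GRCm38), was at 46.0 and 43.3 CPM in wild type and 81.4 and 80.6 CPM in cKO. The replicates lay close together and the groups apart, with a rise of 0.86 (SE 0.129, edgeR adjusted p = 0.00186) on the TMM scale and a value of -0.24, not called, on the Sertoli scale. Mdm2, the ubiquitin ligase that marks p53 for breakdown (chromosome 10, 117688875 to 117710758, minus strand), was at 183 and 189 CPM in wild type and 68.2 and 65.2 CPM in cKO. Both cKO libraries were under both wild-type libraries, and the log2 fold change of -1.48 (SE 0.127, edgeR adjusted p = 2.19e-04) kept its sign and call in each of the 12 alternatives. Of these, the Sertoli scale could only deepen a fall. Mdm4, the relative of Mdm2 that blocks p53 transactivation, was at 244 and 197 CPM in wild type and 188 and 181 CPM in cKO (-0.26, SE 0.155, no call).

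Both p53 targets placed in that route rose on the TMM scale. Btg2, an antiproliferative and immediate early gene, was at 11.7 and 10.8 CPM in wild type and 33.3 and 55.1 CPM in the first and second cKO library. The higher of these was the library with the higher sum of immediate early markers, and a link between them was not tested. The rise of Btg2 was 1.98 (SE 0.262, edgeR adjusted p = 0.00115), and 0.90 on the Sertoli scale, where it only just passed (edgeR adjusted p = 0.0496). Eda2r, a receptor of the tumour necrosis factor family, was at 1.43 and 1.44 CPM in wild type and 4.63 and 4.08 CPM in cKO (1.60, SE 0.250, edgeR adjusted p = 0.00214). On the Sertoli scale Eda2r was at 0.51, not called. Trp63, whose protein guards female germ cells, was at 7.08 and 6.36 CPM in wild type and 5.21 and 4.30 CPM in cKO (-0.50, SE 0.219, no call). Trp73 had 4 to 9 counts in each library and was not tested.

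Promoter letters were read to show which members carry the p53 decamer, the short element that p53 binds and of which a full response element holds a pair. Windows from 250 bases before to 50 after an annotated start (RefSeq, GRCm38.p6) were at hand for 38 of the 44 genes, 53 windows in all. The decamer, searched on both strands with no mismatch, was in 7 windows (13.2%), against 8.36% of 32851 windows of all genes. A pair of decamers up to 13 bases apart was in 0 of the 53 and in 0.0731% of all windows. Of the 7 genes, 3 rose (Bmf, Bax and Trp53), 2 fell (Mdm2 and Birc5), Birc2 was not called and Fasl not tested. The best known p53 elements of Mdm2 lie in its first intron. The 5 windows of the called genes are printed with the decamer in capitals, 5' to 3' along the gene, for chr10:117710709-117711008 (minus strand, Mdm2), chr11:69580109-69580408 (plus, Trp53), chr7:45466849-45467148 (minus, Bax), chr2:118544538-118544837 (minus, Bmf) and chr11:117848987-117849286 (plus, Birc5).
Mdm2: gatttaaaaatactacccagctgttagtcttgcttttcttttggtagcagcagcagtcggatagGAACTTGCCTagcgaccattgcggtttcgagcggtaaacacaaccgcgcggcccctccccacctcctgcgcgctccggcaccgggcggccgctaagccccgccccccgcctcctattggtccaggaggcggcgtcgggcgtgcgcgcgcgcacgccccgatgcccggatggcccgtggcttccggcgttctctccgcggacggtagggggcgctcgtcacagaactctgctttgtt
Trp53: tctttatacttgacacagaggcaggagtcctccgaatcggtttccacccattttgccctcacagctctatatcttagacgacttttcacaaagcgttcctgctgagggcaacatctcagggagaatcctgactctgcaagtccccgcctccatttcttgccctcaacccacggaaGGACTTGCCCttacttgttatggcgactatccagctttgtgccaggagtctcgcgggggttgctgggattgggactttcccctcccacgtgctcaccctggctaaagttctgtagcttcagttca
Bax: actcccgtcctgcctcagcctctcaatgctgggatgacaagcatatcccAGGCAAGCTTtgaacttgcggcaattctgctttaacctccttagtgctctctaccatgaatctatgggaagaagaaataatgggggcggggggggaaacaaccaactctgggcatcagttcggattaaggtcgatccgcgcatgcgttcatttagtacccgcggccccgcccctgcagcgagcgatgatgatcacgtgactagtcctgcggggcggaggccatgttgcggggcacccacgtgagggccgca
Bmf: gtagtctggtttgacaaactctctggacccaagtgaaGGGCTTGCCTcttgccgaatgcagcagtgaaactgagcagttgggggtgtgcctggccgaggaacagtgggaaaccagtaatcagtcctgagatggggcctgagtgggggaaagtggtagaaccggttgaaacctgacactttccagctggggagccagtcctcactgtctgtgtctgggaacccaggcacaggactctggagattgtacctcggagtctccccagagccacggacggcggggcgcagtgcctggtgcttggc
Birc5: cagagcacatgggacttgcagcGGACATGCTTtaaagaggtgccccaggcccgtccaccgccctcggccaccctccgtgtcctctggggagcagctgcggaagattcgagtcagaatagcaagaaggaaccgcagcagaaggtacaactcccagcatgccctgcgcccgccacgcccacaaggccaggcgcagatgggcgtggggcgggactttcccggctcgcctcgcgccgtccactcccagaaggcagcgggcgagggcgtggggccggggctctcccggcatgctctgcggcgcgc
The GC box GGGCGG, on both strands, was in 31 of the 53 windows (58.5%) and in 35.7% of all windows. A match in letters is a description, not a bound site.

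In the extrinsic route, 5 of 6 tested genes rose and 0 fell on the TMM scale, a called share of 83.3%. Among all genes tested, 63.4% were called, 29.2% higher and 34.3% lower. The count of rises was 3 without cKO replicate 1, and with Sertoli scaling none rose and Tnfrsf10b fell. Fas, a death receptor (chromosome 19, 34290659 to 34327770, plus strand), was at 0.713 and 1.24 CPM in wild type and 3.36 and 2.74 CPM in cKO. The groups did not overlap, and the rise was 1.65 (SE 0.355, edgeR adjusted p = 0.00762). Tnfrsf1a, a receptor of tumour necrosis factor (chromosome 6, 125349362 to 125362484, plus strand), was at 32.7 and 35.7 CPM in wild type and 84.4 and 78.6 CPM in cKO (1.25, SE 0.138, edgeR adjusted p = 5.65e-04). Per length it was the highest of the 3 death receptors in both genotypes. Tnfrsf10b, the mouse receptor for Trail and a p53 target, was at 5.68 and 6.16 CPM in wild type and 5.14 and 6.19 CPM in cKO, with overlapping groups.

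The genes that act below the receptors rose together. Casp8, the initiator caspase of this route (chromosome 1, 58795374 to 58847503, plus strand), was at 9.99 and 13.6 CPM in wild type and 29.2 and 25.3 CPM in cKO (1.21, SE 0.206, edgeR adjusted p = 0.00304). The adaptor gene Fadd was at 15.9 and 19.4 CPM in wild type and 29.0 and 26.1 CPM in cKO (0.64, SE 0.173, edgeR adjusted p = 0.0180). The adaptor gene Tradd was at 3.33 and 4.02 CPM against 7.03 and 6.49 CPM (0.88, SE 0.222, edgeR adjusted p = 0.0141). In each of these genes both cKO libraries were above both wild-type libraries, but leaving out cKO replicate 1 ended the calls of Fadd (0.57, edgeR adjusted p = 0.105) and Tradd (0.82, edgeR adjusted p = 0.0637). On the Sertoli scale Fadd and Tradd were at -0.44 and -0.21. Fasl, the ligand, had 5 and 2 counts in wild type and 2 and 0 in cKO and was not tested. A count of 0 in cKO replicate 2 allows up to 0.0822 CPM. Of 11 markers of T or NK cells, which can carry Fas ligand, 3 were tested, and the list summed to 2.99 to 3.60 CPM in wild type and 6.16 to 6.99 CPM in cKO, with Cd8a at 0 counts in every library. The part of these cells in the result was not tested.

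**Figure D2:**
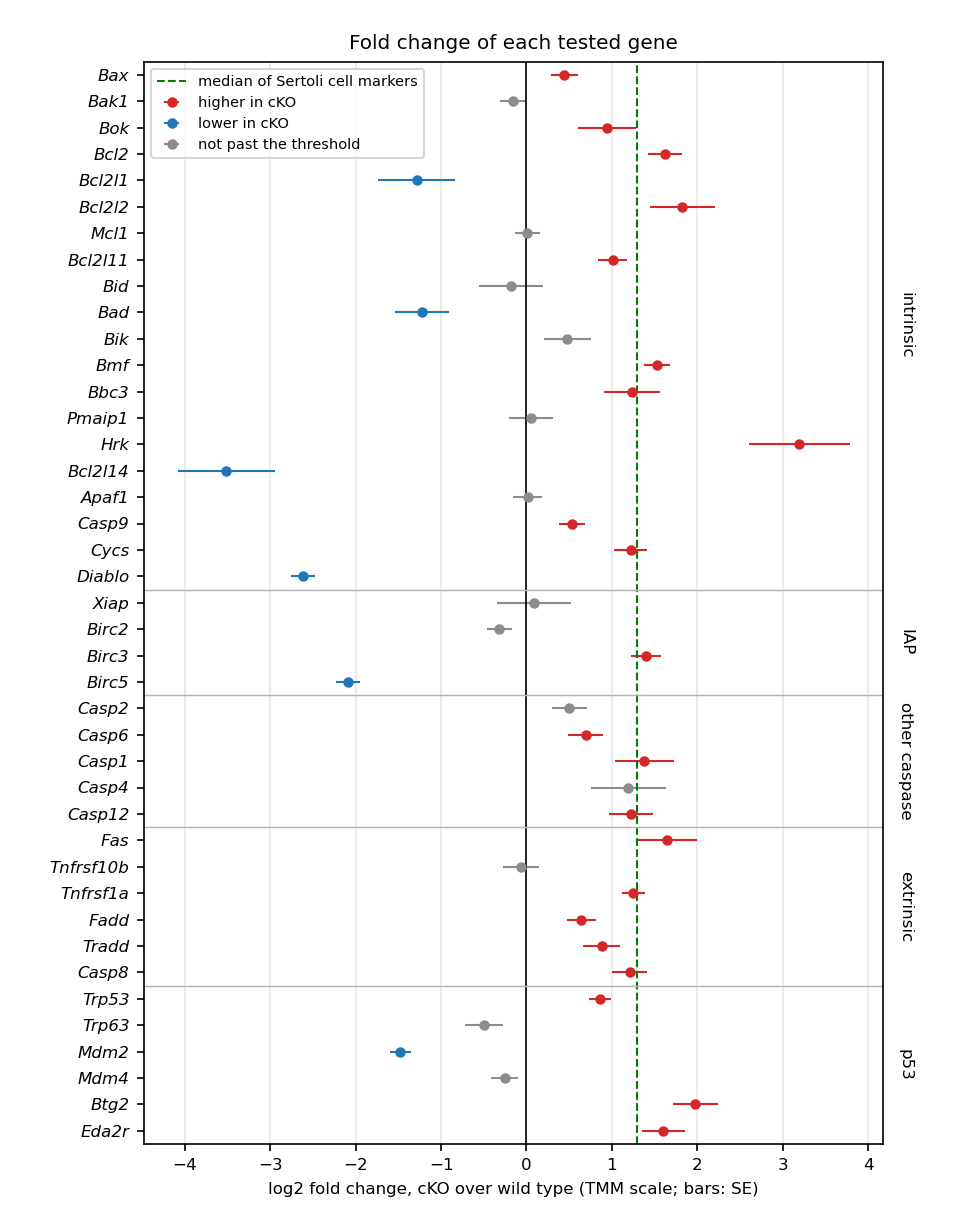
Log2 fold change of cKO over wild type on the TMM scale (x axis, bars are the SE) for each of the 41 tested genes, 2 libraries a group. Red marks calls higher in cKO (22 genes, 2 on the Sertoli scale), blue calls lower and grey no call; the dashed line is the median of the Sertoli markers at 1.29.

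In the intrinsic route, 10 of 20 tested genes rose, 4 fell and 6 were not called on the TMM scale. On the Sertoli scale 1 rose and 11 fell, against 482 and 12680 of all 21822 genes tested. The called share on the TMM scale was 70.0%, near the 63.4% of all genes tested (29.2% higher and 34.3% lower). Of the pore-forming effectors, Bax (chromosome 7, 45461697 to 45466898, minus strand) was at 15.4 and 14.2 CPM in wild type and 19.7 and 20.5 CPM in cKO. The groups were apart, but the rise of 0.44 (SE 0.157) only just passed (edgeR adjusted p = 0.0467). It lost the call whichever library was left out (edgeR adjusted p = 0.0573 to 0.192) and under a replicate block, DESeq2, RLE factors or no filter (adjusted p = 0.0617 to 0.0985). It was 0.67 on library totals and -0.65, called lower, on the Sertoli scale. Bak1 was at 21.4 and 20.7 CPM against 19.1 and 18.5 CPM (-0.16, SE 0.150, no call), and at 0.061 on library totals. Exons of Bak1 overlap Ggnbp1 on the other strand, a gene with 8598 and 15795 counts in wild type and 1617 and 1178 in cKO, and whether the counting used strand is not given. Bok was at 5.60 and 6.42 CPM in wild type and 15.3 and 7.73 CPM in the first and second cKO library (0.94, SE 0.341, edgeR adjusted p = 0.0499). The first cKO library alone stood high: without it the value was 0.37, edgeR adjusted p = 0.329. The call was also lost without either wild-type replicate (edgeR adjusted p = 0.177 and 0.125), and under the block, limma-voom, RLE factors or no filter (adjusted p = 0.0511 to 0.0770).

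The guardians went different ways. Bcl2, the founding member (chromosome 1, 106538178 to 106714274, minus strand), was at 3.88 and 3.63 CPM in wild type and 12.1 and 11.1 CPM in cKO. The replicates were close within each genotype and the rise was 1.63 (SE 0.197, edgeR adjusted p = 8.20e-04), or 0.53 and not called on the Sertoli scale. Bcl2l2, which encodes Bcl-w, a protein needed for adult mouse spermatogenesis (chromosome 14, 54883377 to 54888234, plus strand), was at 25.3 and 10.7 CPM in wild type and 68.9 and 58.9 CPM in cKO. Its wild-type libraries differed from each other but both lay under cKO (1.83, SE 0.383, edgeR adjusted p = 0.00685). On the Sertoli scale Bcl2l2 was at 0.69, not called. It shares exons with Gm20521 on its own strand, a gene with 243 to 328 counts in each library.

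Bcl2l1, which encodes Bcl-xL (chromosome 2, 152780668 to 152831728, minus strand), was at 47.6 and 105 CPM in wild type and 41.6 and 20.8 CPM in cKO. Each genotype held a wide spread, and wild-type replicate 1 stood near cKO replicate 1. The value of -1.29 (SE 0.451, edgeR adjusted p = 0.0452) lost its call without wild-type replicate 2 (-0.63, edgeR adjusted p = 0.249) or cKO replicate 2 (-0.87, edgeR adjusted p = 0.134). The same held under the block, DESeq2, limma-voom, library totals or a minimum of 5 CPM (adjusted p = 0.0562 to 0.100). Mcl1, the guardian with the highest FPKM, was at 199 and 229 CPM in wild type and 227 and 205 CPM in cKO, with overlapping groups (0.011, SE 0.145, no call). Bcl2l10 had 0 counts in wild type, which allows up to 0.0793 and 0.0844 CPM, and 2 counts in each cKO library, and was not tested.

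Of 8 BH3-only genes, which encode sensors of damage and lost support, 4 rose, 1 fell and 3 were not called. Among all genes tested 29.2% were higher and 34.3% lower. On the Sertoli scale Bcl2l11 was at -0.081 and Hrk was the riser still called. Bmf, linked to detachment and the cytoskeleton (chromosome 2, 118528757 to 118549687, minus strand), was at 12.2 and 13.1 CPM in wild type and 34.9 and 38.1 CPM in cKO (1.53, SE 0.154, edgeR adjusted p = 4.16e-04). Bcl2l11, which encodes Bim, was at 9.12 and 8.86 CPM against 17.3 and 18.9 CPM (1.01, SE 0.168, edgeR adjusted p = 0.00277). Both genes had close replicates and groups that did not overlap. Hrk, best known from neurons, had the largest rise of the set, from 15 and 6 counts in wild type to 69 and 134 in cKO, or 0.396 and 0.169 CPM against 1.61 and 3.67 CPM (3.19, SE 0.591, edgeR adjusted p = 0.00417). The second cKO library was the higher.

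The BH3-only genes that p53 drives were split. Bbc3, which encodes Puma, was at 1.22 and 2.03 CPM in wild type and 3.48 and 4.16 CPM in cKO (1.24, SE 0.326, edgeR adjusted p = 0.0167). Leaving out wild-type replicate 1 (0.91, edgeR adjusted p = 0.0518) or cKO replicate 2 (1.11, edgeR adjusted p = 0.0583) ended the call. Pmaip1, which encodes Noxa, was at 11.4 and 15.2 CPM in wild type and 16.4 and 11.1 CPM in cKO, with overlapping groups. Across the 9 textbook p53 targets among the members, 5 rose (Bax, Bbc3, Fas, Btg2 and Eda2r), Mdm2 fell, and Pmaip1, Tnfrsf10b and Apaf1 were not called. Of all genes tested 29.2% were higher and 34.3% lower. On the Sertoli scale Bax, Mdm2, Pmaip1, Tnfrsf10b and Apaf1 were called lower, and Btg2 alone was called higher, at the threshold (edgeR adjusted p = 0.0496).

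Bad, the BH3-only gene that fell, was at 21.8 and 42.9 CPM in wild type and 13.9 and 13.8 CPM in cKO. Its cKO libraries were nearly equal, and the value of -1.22 (SE 0.317, edgeR adjusted p = 0.0156) was -0.67, still called, without wild-type replicate 2. Over 20.5% of its exonic length Bad overlaps Gpr137 on the other strand, which went from 3474 and 3009 counts in wild type to 969 and 904 in cKO, and without strand the reads of both genes cannot be told apart there. Bid, which caspase-8 cleaves to link both routes, overlaps Bcl2l13 on the other strand over 17.7% of its exonic length. Bcl2l13 had 2145 to 2703 counts in each library and Bid 276 to 581, so the same limit holds. Bid was at 7.29 and 16.3 CPM in wild type and 11.3 and 9.51 CPM in cKO. The wild-type libraries lay on either side of cKO, and the direction turned with them: 0.49 without wild-type replicate 2 and -0.66, called, without wild-type replicate 1 (edgeR adjusted p = 0.0411). Bik was at 3.01 and 4.73 CPM against 5.47 and 5.31 CPM (0.48, SE 0.278, no call) and was called without wild-type replicate 2 (0.82, edgeR adjusted p = 0.0374). Bcl2l14, a relative outside these classes, was at 1.96 and 2.22 CPM in wild type and at 3 and 11 counts in cKO, or 0.0701 and 0.301 CPM (-3.51, SE 0.571, edgeR adjusted p = 0.00252). It was the largest fall of the set, and the antisense gene 4933406J09Rik over its exons went from 96 and 72 counts to 0 and 0.

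Below the mitochondrion, Diablo and Cycs moved in opposite directions on the TMM scale. Diablo (chromosome 5, 123509765 to 123525429, minus strand) was at 310.4 and 304 CPM in wild type and 47.3 and 52.8 CPM in cKO. Its replicates were close and the groups far apart, a fall of 2.62 on the log2 scale (SE 0.141, edgeR adjusted p = 3.58e-05). Cycs, which encodes the somatic cytochrome c (chromosome 6, 50562563 to 50566538, minus strand), was at 34.2 and 44.9 CPM in wild type and 101 and 82.8 CPM in cKO (1.22, SE 0.190, edgeR adjusted p = 0.00214), and at 0.13, not called, on the Sertoli scale. Cyct, the testis-specific cytochrome c gene of meiotic and later germ cells, went from 156 and 159.9 CPM to 5.28 and 6.57 CPM. Casp9, the apoptosome caspase, was at 28.2 and 24.5 CPM in wild type and 39.6 and 36.5 CPM in cKO (0.53, SE 0.154, edgeR adjusted p = 0.0239). Its call was lost without wild-type replicate 2 (0.41, edgeR adjusted p = 0.0631), cKO replicate 1 (0.47, edgeR adjusted p = 0.144) or cKO replicate 2 (0.59, edgeR adjusted p = 0.0733), and it was -0.57 and called lower on the Sertoli scale. Apaf1 was at 18.2 and 15.4 CPM against 17.2 and 16.7 CPM and its groups overlapped. Mitochondrially encoded genes took 4.01 to 4.93% of the counts in wild type and 8.81 to 10.2% in cKO, and their part in these results was not tested.

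Among the IAP genes, Birc3 rose and Birc5 fell on the TMM scale. Birc5, which encodes survivin, a protein of cell division as well as of apoptosis (chromosome 11, 117849251 to 117855743, plus strand), was at 64.2 and 64.0 CPM in wild type and 14.8 and 15.3 CPM in cKO. The replicates of each genotype were nearly equal, and the fall was 2.09 on the log2 scale (SE 0.140, edgeR adjusted p = 7.95e-05). Birc3, a target of NF-kappa-B signalling, was at 12.9 and 10.9 CPM against 33.2 and 29.6 CPM (1.40, SE 0.172, edgeR adjusted p = 8.55e-04), and at 0.30, not called, on the Sertoli scale. Birc2, its close relative, was at 178 and 206 CPM against 164 and 144 CPM (-0.32, SE 0.149, no call) and was called without wild-type replicate 1 (-0.43, edgeR adjusted p = 0.0415). Xiap, the X-linked inhibitor of caspase-9 and the executioners, was at 54.2 and 55.5 CPM in wild type but at 30.6 and 86.1 CPM in the first and second cKO library. These lay on either side of wild type, and the value of 0.088 (SE 0.435) was 0.65 and called higher without cKO replicate 1 (edgeR adjusted p = 0.0377) and -0.83 and called lower without cKO replicate 2 (edgeR adjusted p = 0.0211).

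Of the other 5 caspase genes, 3 rose and 0 fell on the TMM scale, against 29.2% and 34.3% of all genes tested. On the Sertoli scale Casp2 and Casp6 were at -0.57 and -0.38. Casp6, an executioner, was at 16.6 and 22.6 CPM in wild type and 28.6 and 34.7 CPM in cKO (0.69, SE 0.207, edgeR adjusted p = 0.0266), with no call once wild-type replicate 1 (0.48, edgeR adjusted p = 0.0864) or cKO replicate 2 (0.55, edgeR adjusted p = 0.129) was left out. Casp2 was at 13.8 and 19.2 CPM against 22.6 and 24.1 CPM (0.50, SE 0.203, no call) and was called without wild-type replicate 2 (0.74, edgeR adjusted p = 0.0203) and on library totals (0.72, edgeR adjusted p = 0.0294). The inflammatory caspase genes had few counts. Casp1 was at 0.608 and 0.872 CPM against 1.73 and 2.14 CPM (1.38, SE 0.340, edgeR adjusted p = 0.0129), again with no call once wild-type replicate 1 (1.14, edgeR adjusted p = 0.0564) or cKO replicate 2 (1.23, edgeR adjusted p = 0.0591) was left out. Casp4 was at 0.396 and 0.900 CPM against 1.38 and 1.59 CPM and just missed the threshold (1.19, SE 0.444, edgeR adjusted p = 0.0542). It was called without wild-type replicate 2 (1.87, edgeR adjusted p = 0.0207), on library totals, with limma-voom and with the block (adjusted p = 0.0364 to 0.0496). Casp12, a caspase of the endoplasmic reticulum, was at 2.14 and 2.76 CPM against 6.26 and 5.15 CPM (1.22, SE 0.257, edgeR adjusted p = 0.00692). The macrophage list summed to 225 to 264 CPM in wild type and 519 to 572 CPM in cKO, and the part of macrophages in these values was not tested.

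Ratios of counts within a library need no scale between libraries. In whole testis they can still differ with cell makeup, whose part in them was not tested, so they are not balances within a cell. With 2 libraries against 2, the exact two-sided permutation test cannot give a p under 0.333, so none of the 8 ratios can pass. Counts of Mdm2 to Trp53 stood at 3.97 and 4.36 in wild type and 0.838 and 0.808 in cKO, a log2 difference of -2.34 (SDs 0.0970 and 0.0362, exact p = 0.333). The difference was larger than the spread between replicates. Bax to Bcl2 went from 3.95 and 3.92 to 1.62 and 1.86, a difference of -1.18 (SDs 0.00775 and 0.138). Bax to Bcl2l1 went from 0.322 and 0.136 to 0.473 and 0.987, a difference of 1.71 (SDs 0.882 and 0.750). That difference was 1.08 without wild-type replicate 2 and 1.18 without cKO replicate 2. The ratio of Bax to a guardian was thus lower in cKO for Bcl2 and higher for Bcl2l1, and the difference for Mcl1 was 0.43 (SDs 0.223 and 0.146), or 0.27 without wild-type replicate 2. Mdm2 to Mdm4 differed by -1.23 (SDs 0.256 and 0.00496) and Casp8 to Fadd by 0.57 (SDs 0.107 and 0.0408), with groups that did not overlap. Casp9 to Xiap overlapped between groups (0.521 and 0.440 against 1.29 and 0.424, exact p = 1), and its log2 difference of 0.63 (SDs 0.172 and 1.14) was -0.18 without cKO replicate 1 and 1.43 without cKO replicate 2. Cyct to Cycs went from 4.56 and 3.56 to 0.0521 and 0.0794, a difference of -5.97 (SDs 0.252 and 0.430).

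**Figure D3:**
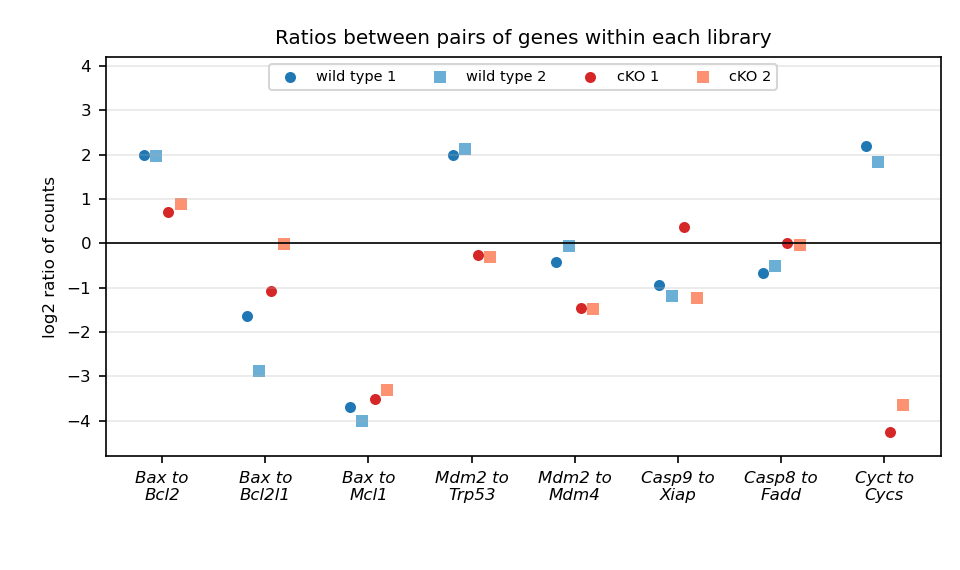
Log2 ratio of the counts of both genes of a pair within each library (y axis) for 8 pairs; circles and squares are replicates 1 and 2, blue wild type and red cKO. Mdm2 to Trp53 has a mean of 2.06 in wild type and -0.28 in cKO, and Casp9 to Xiap overlaps between genotypes.

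Other genes of the same routes were taken from lists drawn up beside the members. Of 39 tested further p53 targets, 16 rose and 9 fell, with a median log2 fold change of 0.37. These 25 calls were near the called share of all genes tested (63.4%). The background for this and each list below was 29.2% higher and 34.3% lower, with a median of -0.023. Plk3 and Bcl6 rose by 1.81 (SE 0.309) and 1.68 (SE 0.174), and Dram1, an autophagy gene, by 2.20 (SE 0.694). On the Sertoli scale Plk3, Bcl6 and Dram1 were at 0.73, 0.58 and 1.17, none of them called. Dram1 was at 4.74 and 23.6 CPM in the first and second cKO library. Its call was lost without cKO replicate 2 (0.64, edgeR adjusted p = 0.138), without either wild-type replicate (edgeR adjusted p = 0.144 and 0.143), and under DESeq2 and limma-voom (adjusted p = 0.0573 and 0.112). Ccnk, Ckap2 and Trp53i13 fell by 2.68, 1.51 and 1.24 on the log2 scale (SE 0.146, 0.177 and 0.189). Cdkn1a, the p53 target that halts the cell cycle, named after its values were seen, was at 8.24 and 11.6 CPM in wild type and 8.15 and 10.7 CPM in cKO, with overlapping groups.

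Of 18 p53 cofactors and kinases, 2 rose and 8 fell, with a median of -0.17. Atr, the replication stress kinase that also marks unsynapsed chromosomes in meiosis, went from 929 and 877 CPM to 114 and 129 CPM (-2.89, SE 0.157, edgeR adjusted p = 3.69e-05). Ppp1r13l, which encodes the p53 inhibitor iASPP, fell by 2.42 (SE 0.172) and the acetyltransferase gene Kat5 by 1.49 (SE 0.128). Hipk2 rose by 0.97 (SE 0.302), or by 1.51 without wild-type replicate 1 and 0.55 without wild-type replicate 2. Its call was lost without either cKO replicate (edgeR adjusted p = 0.0678 and 0.0528). Chek2 rose by 0.56 (SE 0.181), with no call once wild-type replicate 1, cKO replicate 1 or cKO replicate 2 was left out (edgeR adjusted p = 0.0821, 0.157 and 0.0906) or under the block or no filter (edgeR adjusted p = 0.0734 and 0.0547). On the Sertoli scale Hipk2 and Chek2 were at -0.16 and -0.54.

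Of 25 tested further death receptor genes, 16 rose and 5 fell, with a median of 0.85. Tnfrsf12a, the Tweak receptor, went from 1.35 and 2.28 CPM to 12.6 and 12.2 CPM (2.78, SE 0.295) and was called on the Sertoli scale too (1.70, edgeR adjusted p = 0.00221). Cflar, which encodes the caspase-8 inhibitor c-Flip, went from 42.2 and 36.6 CPM to 122 and 109 CPM (1.55, SE 0.148). Traf1 rose by 1.69 (SE 0.456), with no call once wild-type replicate 2 (1.24, edgeR adjusted p = 0.0782) or cKO replicate 2 (1.35, edgeR adjusted p = 0.0779) was left out. On the Sertoli scale Cflar and Traf1 were at 0.44 and 0.60, neither called. Ngfr fell by 2.90, Faf1 by 1.62 and Traf2 by 1.27 (SE 0.228, 0.150 and 0.155).

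Of 25 tested further Bcl-2 family and mitochondrial genes, 4 rose and 13 fell, with a median of -0.46. Cyct fell by 4.74 (SE 0.177), Spata18 by 3.67 (SE 0.287) and Bcl2l12 by 2.60 (SE 0.161). Vdac1, a channel of the outer mitochondrial membrane, rose by 1.26 (SE 0.151) and Aifm1 by 0.78 (SE 0.137). Bag3 rose by 0.41 (SE 0.141), or 0.64 on library totals, and lost its call under the block, RLE factors, no filter, and without wild-type replicate 1 or either cKO library (adjusted p = 0.0532 to 0.179). On the Sertoli scale Vdac1 was at 0.16, not called, and Aifm1 and Bag3 were at -0.31 and -0.68. Of 24 tested further caspase, IAP and executioner genes, 9 rose and 5 fell, with a median of 0.61. Gsdmd, Naip5 and Pycard, genes of inflammatory cell death, rose by 1.70, 1.53 and 1.47 (SE 0.198, 0.316 and 0.252). With Sertoli scaling they were at 0.61, 0.43 and 0.38, none of them called. Aven, an apoptosis inhibitor gene, fell by 2.76 (SE 0.169), Xkr8, a lipid scramblase gene, by 1.66 (SE 0.223) and Acin1 by 0.84 (SE 0.177).

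The rises were set beside those of the somatic markers. Of the 22 members that rose, 9 rose by more than the highest of the 5 somatic list medians (Bcl2, Bcl2l2, Bmf, Hrk, Birc3, Casp1, Fas, Btg2 and Eda2r). A further 9 lay between the lowest and the highest, and 4 were below the lowest (Bax, Casp9, Casp6 and Fadd). How many of all genes tested passed the same medians was not counted, so these counts have no background and mark no trait of the set. Casp1 (1.38, SE 0.340) and Birc3 (1.40, SE 0.172) were within their SE of the highest median (1.34). Single markers went further than the medians, with list maxima from 1.64 (macrophage) to 2.69 (Leydig). Hrk (3.19), with few counts in wild type, alone was above every maximum. On the Sertoli scale 20 of the 28 called members kept their sign, where the 6 that fell could not change it. There 8 kept their call, Hrk and Btg2 (edgeR adjusted p = 0.0496) higher and Bcl2l1, Bad, Bcl2l14, Diablo, Birc5 and Mdm2 lower. Over all 21822 genes tested, 482 were called higher and 12680 lower on that scale. Whether these genes changed within a cell type was not tested.

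**Figure D4:**
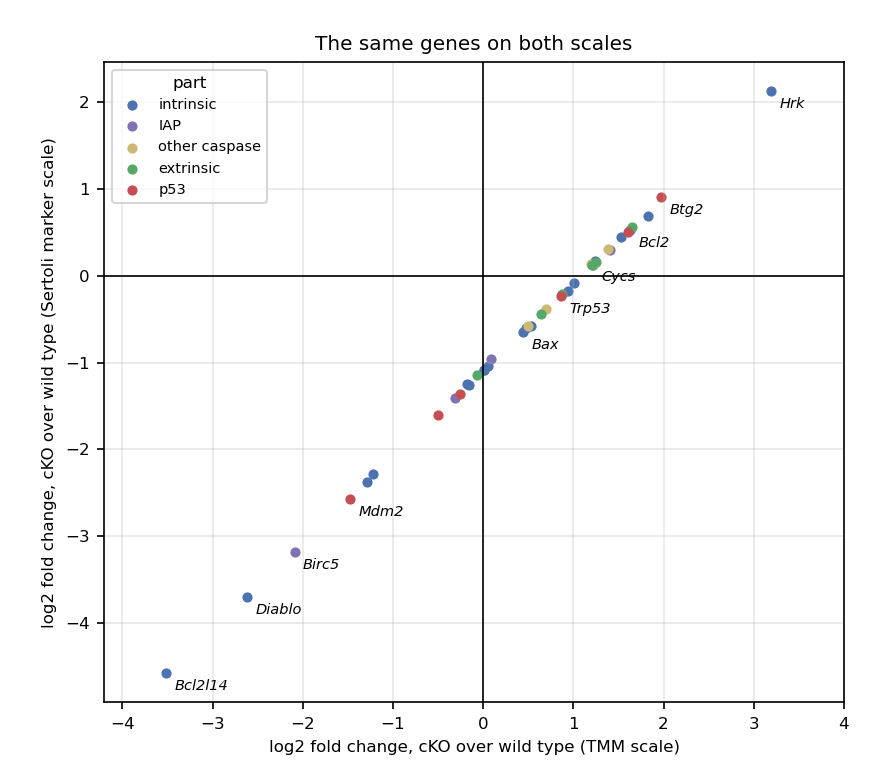
Log2 fold change of cKO over wild type on the TMM scale (x axis) and with libraries scaled to the Sertoli markers (y axis) for the 41 tested genes, coloured by route. Trp53 and Bax lie above 0 on the first scale and below 0 on the second, while Mdm2, Birc5, Diablo and Bcl2l14 are below 0 on both.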

How the data were processed

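RNA was sequenced from whole testes at postnatal day 18, 2 wild-type and 2 Sympk cKO libraries. Per the labels' protocols, paired-end TruSeq libraries were made from fragmented mRNA with random primers. The submitters' processing notes name HISAT2 and GRCm38; no counting program, strand setting or annotation is named. The authors deposited whole-number read counts per gene and FPKM values for 53465 genes.

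The filter was edgeR's filterByExpr and the scale TMM (edgeR 4.0.16, R 4.3.3). The two-sided quasi-likelihood test of genotype was adjusted by Benjamini-Hochberg over the 21822 genes tested. A count of 0 was given a limit of 3 counts per library, for counting error only. FPKM served for levels between genes. The replicates of a group differed beyond counting noise (chi-square per gene 46.7 in wild type and 22.1 in cKO), so all 4 libraries were kept. Strands and exon overlaps were read from GENCODE M21, where all 44 members matched by ID and 39 had the same coordinates. The alternatives comprised a replicate block, DESeq2 1.42.0, limma-voom (limma 3.58.1), RLE factors, library totals, scaling to 19 Sertoli markers, no filter, a minimum mean of 5 CPM, and leaving out single libraries; where that left 1 library in a group, it was taken to vary like the other group. Tested on simulated data whose spread differed from gene to gene, the procedure made more false calls than its threshold allows, and it made fewer where the spread followed the level alone. In both cases it missed most changes of 2-fold (31.8% and 47.8% found) and found most of 4-fold (90.2% and 95.6%). The simulated data held a far smaller share of changed genes than was called here (63.4%), so these rates cannot be carried over. Calls near the threshold are not firm, and no call does not show that a gene was unchanged. Of each further list, the up to 3 called genes with the largest rise and the largest fall were named, given a mean of at least 1 CPM. The members, lists and alternatives were chosen with earlier results of these data known. By symbol, Septin4 and the marker Meiosin were not matched.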

Additional observations from a re-analysis of the deposited data

How the results depend on the processing

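Scaling to the Sertoli markers changed the split of calls most of the settings run. It gave 482 and 12680 genes higher and lower over all genes, 2 and 17 among the members, 1 and 11 in the intrinsic route, 0 and 1 in the extrinsic route and 1 and 3 in the p53 route. On that scale the log2 fold change turned for Bax -0.65, Bok -0.18, Mcl1 -1.08, Bcl2l11 -0.081, Bik -0.60, Pmaip1 -1.04, Apaf1 -1.09, Casp9 -0.57, Xiap -0.96, Casp2 -0.57, Casp6 -0.38, Fadd -0.44, Tradd -0.21, Trp53 -0.24, Hipk2 -0.16, Chek2 -0.54, Aifm1 -0.31, Bag3 -0.68. A minimum mean of 5 CPM, which tested fewer genes (32 of the members), gave 4620 lower genes over all and 2 lower intrinsic members. Leaving out single libraries gave 17 to 22 members higher and 6 to 8 lower, 7 to 8 and 3 to 5 in the intrinsic route, 3 to 5 and 0 in the extrinsic route, and 3 and 1 to 2 in the p53 route. The other changes of sign were in members without a call. On library totals Bak1 was at 0.061, Bid was at 0.027 and Tnfrsf10b was at 0.16. Under DESeq2 Mcl1 was at -0.025 and Apaf1 was at -0.025. With RLE factors Mcl1 was at -0.025 and Apaf1 was at -0.025. With the replicate block Xiap was at -0.094. With limma-voom Xiap was at -0.11. Without single libraries the ranges that crossed 0 were Apaf1 -0.12 to 0.13, Bid -0.66 to 0.49, Mcl1 -0.095 to 0.098, Pmaip1 -0.25 to 0.31, Tnfrsf10b -0.20 to 0.068, Xiap -0.83 to 0.65. The cause was not tested. Of the ratios, the leave-one-out range was -1.28 to -1.08 for Bax to Bcl2, 1.08 to 2.33 for Bax to Bcl2l1, 0.27 to 0.59 for Bax to Mcl1, -2.41 to -2.27 for Mdm2 to Trp53, -1.41 to -1.05 for Mdm2 to Mdm4, -0.18 to 1.43 for Casp9 to Xiap, 0.50 to 0.65 for Casp8 to Fadd, -6.27 to -5.67 for Cyct to Cycs. Nothing says that replicate numbers pair the libraries, and same-numbered ones did not deviate together (correlation -0.106 across genes); with the replicate block 12569 genes were called, with 25 of the members' 28 calls. Members under 1 CPM rest on few counts.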
